A study of Mus musculus with 25 samples.

Results

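The microRNA precursor mir-203 (mmu-mir-203) was followed in blood at 2, 9, 15, 24 and 30 months of age. All animals were male mice of the inbred strain C57BL/6. It is 1 of 1193 precursors (hairpins from which microRNAs are cut) in a table of raw read counts. Of these precursors 865 had at least 1 count and 28.3% had enough to be tested. There were 5 libraries per age, whose titles carry different animal numbers, and no treatment or genotype other than the strain is given. Mir-203 was taken up because of its counts over these same 25 libraries, so its own levels and their differences between ages are given as a description, with standard errors and no test.

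MicroRNAs are short RNAs that bind messenger RNAs through their seed, bases 2 to 8 of the mature strand, and lower the yield of protein. miR-203 is best known from the epidermis, where it is switched on as keratinocytes leave the basal layer and represses the stem cell factor p63. It is also known as a tumour suppressor that targets ABL1 and is silenced in some blood cancers. The counts come from blood as a bulk tissue, in which more cells that hold mir-203 and more mir-203 per cell cannot be told apart.

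The mir-203 hairpin lies on chromosome 12 (112130880 to 112130955, plus strand of GRCm38.p6), 3.307 kb beyond the end of Aspg and 13.02 kb before the start of Kif26a, and RefSeq places no host gene across it. The 2 mature strands are printed with their seeds in capitals, because they are what the counts stand for, and the hairpin with both mature strands in capitals, all from RefSeq.
mmu-miR-203-3p: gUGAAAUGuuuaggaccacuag
mmu-miR-203-5p: aGUGGUUCuugacaguucaaca
mmu-mir-203 hairpin: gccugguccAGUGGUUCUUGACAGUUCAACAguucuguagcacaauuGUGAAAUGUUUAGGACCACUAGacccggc
The deposited value is 1 count per hairpin and does not separate these strands. miR-203-3p, the strand usually described in skin, pairs through its seed with CAUUUCA in a messenger RNA. Of the 1738 mature mouse microRNAs in the RefSeq table, 0 others carry the seed of miR-203-3p and 0 others that of miR-203-5p, so mir-203 has no seed family in that table. Folded with RNAfold, the hairpin had a minimum free energy of −35.1 kcal/mol, and 18 of the 22 bases of miR-203-3p paired with miR-203-5p.

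RefSeq also lists a second microRNA, mir-203b, on the opposite strand of the same locus. Its mature strands span 112130887 to 112130946 on the minus strand of chromosome 12. Its mature strands are shown because they are cut from the same base pairs, with their seeds in capitals.
mmu-miR-203b-5p: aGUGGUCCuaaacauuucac
mmu-miR-203b-3p: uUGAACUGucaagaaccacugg
miR-203b-5p lies opposite miR-203-3p over 20 bases, and miR-203b-3p lies opposite miR-203-5p over 20 bases. The count table has 0 rows for mir-203b, and the sources used here do not say whether strand was used in counting. Without strand, reads from mir-203b would be counted for mir-203, so each value below may hold both.

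Library totals ran from 4.884 to 24.25 M (mega) counts and were lowest in the oldest animals, with means of 9.888 ± 2.71 M for 30-month and 18.85 ± 2.82 M for 2-month libraries (n = 5 each, ± SD). The red cell microRNAs mir-451a and mir-486a were at 60300 CPM (counts per M counts, with library sizes scaled by the trimmed mean of M-values) or more in every 30- and 2-month library, as the tissue label implies. Mir-203 took 5770 of the 386971411 counts of all libraries, or 0.00149%, and stood 143rd of the 1193 precursors by mean level.

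The mean level of mir-203 was higher at each successive age, with little between 9 and 15 months. At 2 months the 5 libraries held 7.27, 7.30, 8.27, 8.94 and 8.0 CPM. At 9 months they held 10.2, 11.8, 14.5, 12.7 and 9.83 CPM. The lowest library of 9 months thus lay above the highest library of 2 months. At 15 months the libraries held 8.64, 14.6, 13.1, 12 and 12.2 CPM. One library of 15 months therefore lay within the range of 2 months, and the other 4 lay above it. At 24 months they held 23.2, 23.3, 22.1, 14.6 and 22.8 CPM, with replicate 4, the shallowest library of all, apart from the other 4. At 30 months they held 23.6, 24.1, 28.9, 22.0 and 27.5 CPM. With this scaling every library of 24 and 30 months was above every library of 2, 9 and 15 months, although replicate 4 of 24 months exceeded the highest library of 15 months by only 0.0439 CPM. By plain library totals it lay below, at 17.0 CPM against 18.4 CPM.

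**Figure D1:**
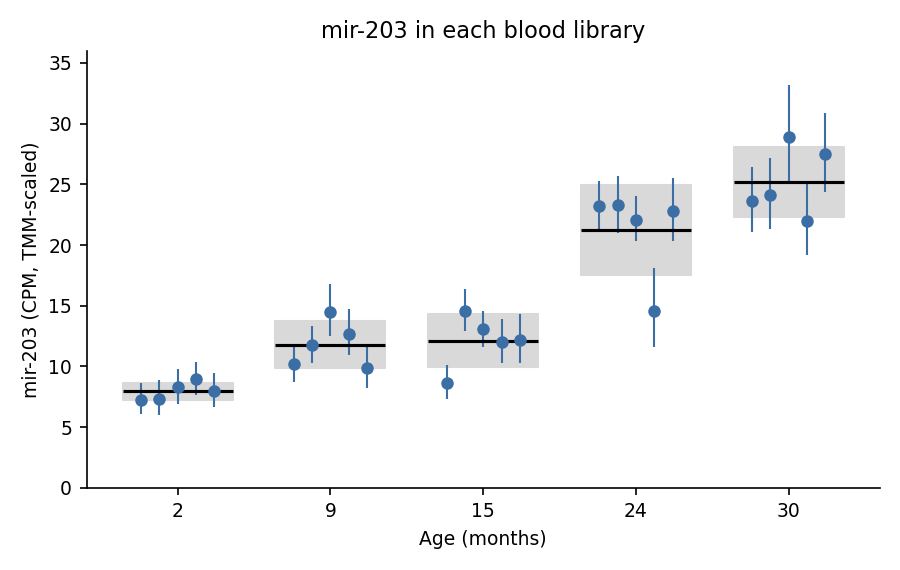
mir-203 in CPM (vertical axis) in each library (points) by age in months, with 95% Poisson intervals for counting error (thin lines), the mean of the age (black bars) and 1 SD on either side (grey). Means stand at 25.2 CPM at 30 months and 7.96 CPM at 2 months, and the libraries of 15 and 9 months overlap.

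By age, the mean level was 7.96 ± 0.702, 11.8 ± 1.92, 12.1 ± 2.18, 21.2 ± 3.71 and 25.2 ± 2.87 CPM from the youngest to the oldest group (n = 5 each, ± SD). Of the 10 pairs of ages, 7 had groups without overlap. The 3 that overlapped were 15 against 2 months, 15 against 9 months and 30 against 24 months. By plain library totals 5 pairs had no overlap, since 24 against 15 months and 9 against 2 months then overlapped too, with 7.64 CPM as the lowest at 9 months and 8.08 CPM as the highest at 2 months. Over all tested precursors, 14.2% were past the threshold of the edgeR test at 30 against 2 months (adjusted p under 0.05), and 10.7% had groups without overlap. Mir-203 was chosen with that contrast in view, so nothing is read from its place among them.

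Between neighbouring ages the level of mir-203 differed by very unequal amounts. At 9 against 2 months the edgeR fit of all 25 libraries gave a log2 change of 0.57 (SE 0.15), or 1.48-fold. At 15 against 9 months the change was 0.04 (SE 0.15), and the means differed by 0.292 CPM, less than the SD of either age. At 24 against 15 months it was 0.81 (SE 0.15), or 1.76-fold, the widest of the 4 steps. At 30 against 24 months it was 0.25 (SE 0.15), or 1.19-fold, and 4 of the 5 libraries of 24 months lay at or above the lowest of 30 months. Against 2 months the changes came to 0.60 (SE 0.15) at 15 months, 1.42 (SE 0.15) at 24 months and 1.66 (SE 0.15) at 30 months. Without replicate 4, the 24-month mean was 22.8 ± 0.537 CPM (SD, n = 4), and the log2 change against 2 months was 1.52.

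Counting error made up a different part of the spread at each age. The raw counts of mir-203 ran from 103 to 174 at 2 months, where the coefficient of variation between animals was 8.82% and counting alone gives 8.70%. At 9 and 15 months the animals varied by 16.3% and 18.0%, against 7.54% and 6.98% from counting. At 24 months the coefficient of variation was 17.5% against 5.83% from counting, with raw counts of 83 to 560. At 30 months it was 11.4% against 6.4%, with counts of 204 to 314. The biological coefficient of variation that edgeR fitted for mir-203 was 17.2%, against 28.1% in common over the tested precursors, of which 24.9% had a lower one. The intervals are Poisson limits on read counts and cover counting error only. The kit adds no molecular identifiers, so reads copied from the same molecule cannot be told apart.

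The size of the difference depended on how libraries were scaled. At 30 against 2 months the log2 change of mir-203 was 1.66 with trimmed mean factors, 1.64 with median-ratio factors, 1.72 with upper quartile factors, 1.79 with totals that leave out the 10 most abundant precursors and 1.92 with plain library totals. The median change of all tested precursors moved along with these scalings, at −0.04, −0.06, 0.02, 0.09 and 0.20 in the same order. A scaling moves all precursors by about the same amount, so the change of mir-203 relative to that median, 1.70 to 1.71, is nearly fixed by construction. Divided by the counts of each of the 10 most abundant precursors within the same library, which needs no scaling, mir-203 was higher at 30 than at 2 months by 1.62 (against mir-25 and mir-92a-1) to 2.23 (against mir-16-2) on the log2 scale. The 4 red cell rows mir-486a, mir-486b, mir-451a and mir-451b gave 1.97, 1.97, 1.87 and 1.87, and each pair of these shares its reads.

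**Figure D2:**
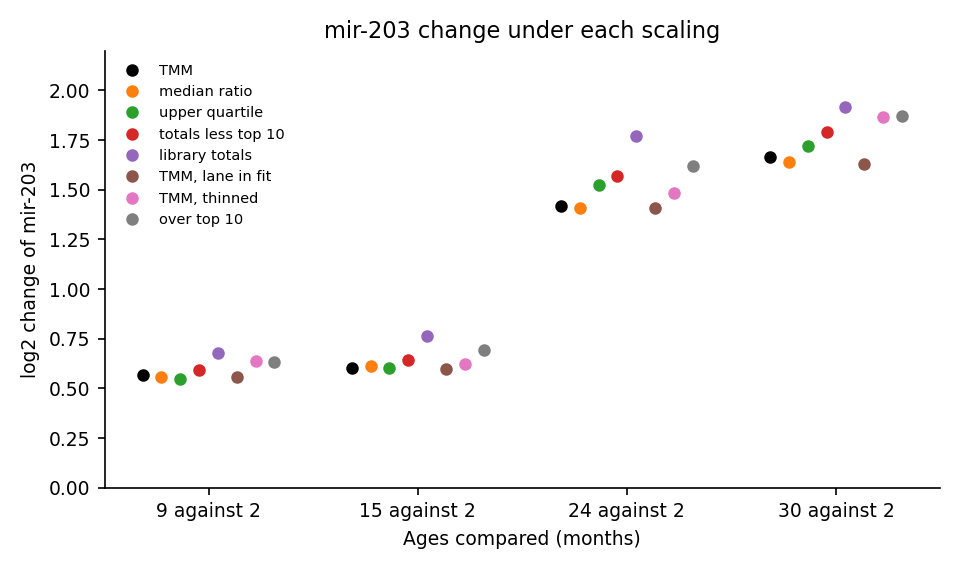
Log2 change of mir-203 against 2 months (vertical axis) for 9, 15, 24 and 30 months (horizontal axis) under 8 ways of scaling or fitting (colours). The 30-month values lie between 1.63 with lane in the fit and 1.92 with library totals, and 9 and 15 months lie together below 0.80 in each.

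The sequencing lanes, which the column names give, were spread unevenly over the ages. Lane 5 was the one lane that held all 5 ages, and its libraries had 7.30 CPM of mir-203 at 2 months, 14.5 CPM at 9 months, 12 CPM at 15 months, 22.8 CPM at 24 months and 22.0 CPM at 30 months. In each of the 6 lanes every library of 24 or 30 months lay above every library of 2, 9 or 15 months. With trimmed mean factors this follows from the same order over all libraries, so it is no separate check on lanes. The narrowest margin was in lane 4, with 14.6 CPM at 24 months and 13.1 CPM for the highest of the younger ages. The widest was in lane 8, with 23.3 CPM or more at 24 and 30 months and at most 8.64 CPM at 2 and 15 months. The order within lanes also held by plain library totals in all 6. With lane in the fit the log2 change at 30 against 2 months was 1.63.

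**Figure D3:**
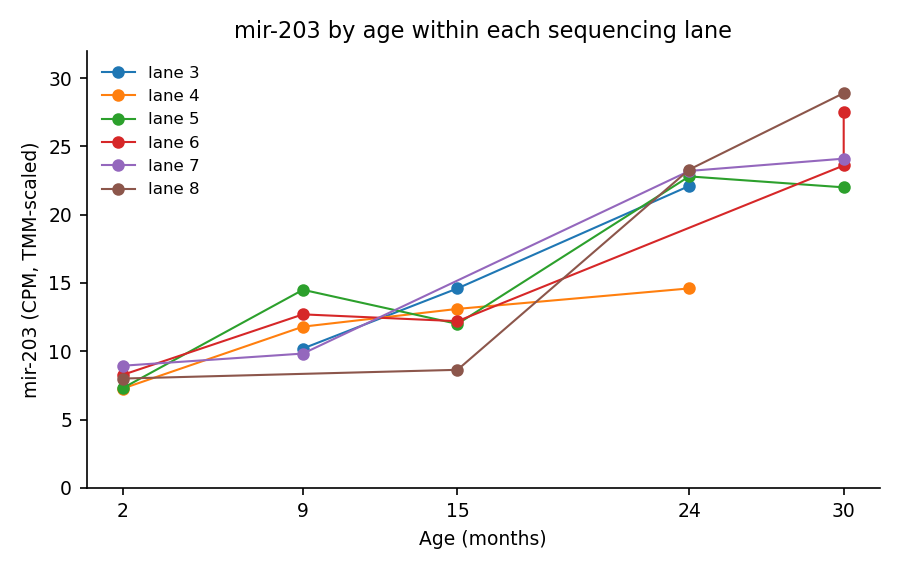
mir-203 in CPM (vertical axis) against age in months (horizontal axis), each point 1 library and each colour and line 1 sequencing lane. In every lane the 24- and 30-month libraries lie above the younger ones, as they do over all lanes together. Lane 5 has 22.8 and 22.0 CPM against at most 14.5 CPM.

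The index sequences, different in each library, follow the ages in alphabetical order apart from replicates 4 and 5 of 30 months, so index and age cannot be told apart otherwise. Those libraries held 22.0 and 27.5 CPM of mir-203, within the range of 23.6, 24.1 and 28.9 CPM in the other 3 except for the lower one. Depth was also lower at 24 and 30 months, with mean totals of 14.32 and 9.888 M. The means were 18.85, 16.15 and 18.2 M at 2, 9 and 15 months. Within an age, the shallowest library had the highest mir-203 of the 5 at 9 and 30 months and the lowest at 24 months, and lay between at 2 and 15 months. With all libraries thinned to the smallest total, the log2 change at 30 against 2 months was 1.87.

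Since mir-203 is known from skin, the microRNAs of surface epithelia were examined beside it. The list held mir-200a, mir-200b, mir-429, mir-200c and mir-141 of the mir-200 family, which keeps epithelial cells from taking on a mesenchymal form, and mir-205 of the epidermis and other stratified epithelia. Of its 6 members 4 passed the filter on low counts, while mir-200b and mir-429 did not. In the edgeR test at 30 against 2 months 0 of the 4 were higher and 1 was lower, where 9.17% and 5.03% of all tested precursors were higher and lower, so 0 higher among 4 is near the background. In the linear trend with age 0 were higher and 2 were lower, where 10.7% of all tested precursors were higher and 9.17% lower, or 19.8% together. The median log2 change of the 4 was −1.0 at 30 against 2 months, against −0.04 over all tested precursors. None of the 6 was at 0 throughout, and mir-200a and mir-200b were each at 0 in 1 library. The members that missed the filter were near the limit of the counts. Mir-200b held 0.451, 0.368, 0.992, 0.300 and 0.397 CPM at 30 months, against 0.224, 0.213, 0.382, 0.103 and 0.0606 CPM at 2 months, on raw counts of at most 7. Tested without a filter, its log2 change was 1.25 (adjusted p = 0.229). Mir-429 averaged 0.347 ± 0.132 CPM at 30 months and 0.370 ± 0.170 CPM at 2 months.

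Mir-205 stood at 0.752, 0.921, 1.13, 0.701 and 1.19 CPM at 30 months, against 2.24, 2.41, 2.10, 1.23 and 1.39 CPM at 2 months. The ages did not overlap, and mir-205 fell by 1.0 on the log2 scale (SE 0.33, edgeR adjusted p = 0.0426). That call rests on raw counts of at most 12 at 30 months and held in only 4 of the 21 alternatives, where its adjusted p reached 0.185, though the change was below 0 in all 21. Mir-200c, the epithelial precursor nearest to mir-203 in level, held 4.81, 3.59, 6.09, 5.50 and 6.85 CPM at 30 months, against 7.50, 5.53, 7.83, 9.97 and 6.30 CPM at 2 months. These ages overlapped, with a log2 change of −0.47 (SE 0.21, adjusted p = 0.136). Its trend with age per 10 months was −0.18 on the log2 scale (SE 0.06, adjusted p = 0.0405), but this held in only 5 of the 36 alternatives, where its adjusted p reached 0.931. Mir-141, which lies in the same cluster as mir-200c, held 56.7, 7.46, 56.0, 30.4 and 49.1 CPM at 30 months, against 55.9, 52.9, 107, 99.9 and 83.2 CPM at 2 months, with a log2 change of −1.0 (SE 0.44, adjusted p = 0.138). Replicate 2 of 30 months was by far the lowest of these, whereas its mir-203 stood at 24.1 CPM, in the middle of its age. Mir-200a changed by −2.03 (SE 0.81, adjusted p = 0.102) at levels of at most 0.567 CPM at 30 months and at most 2.16 CPM at 2 months.

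**Figure D4:**
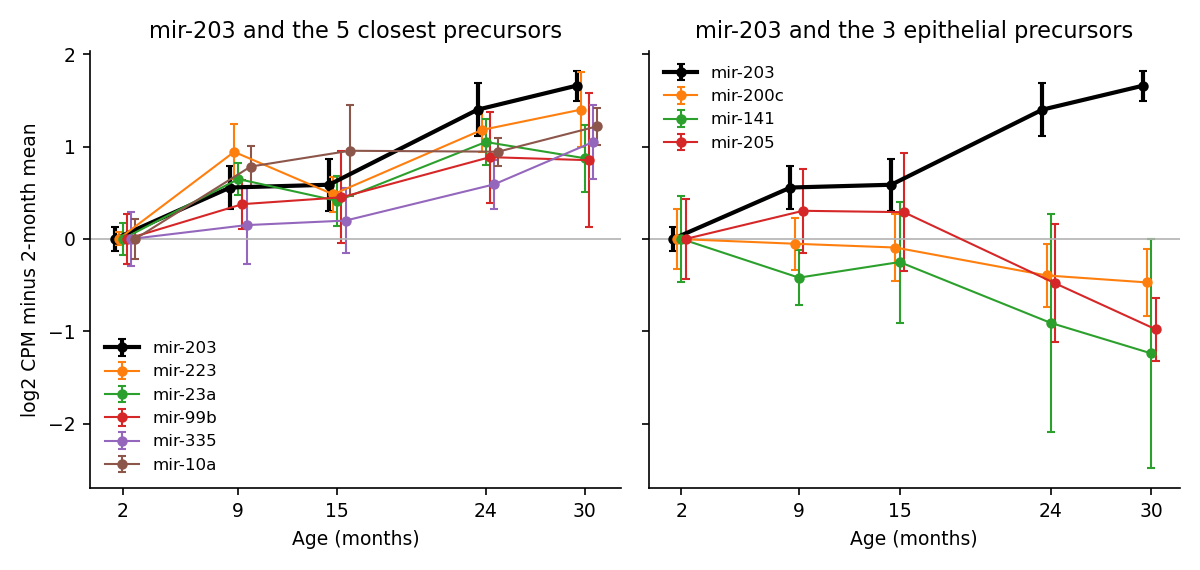
Mean log2 CPM minus the 2-month mean (vertical axis) against age in months for mir-203 (black) and, at left, the 5 precursors of most similar profile and, at right, 3 epithelial precursors; bars are 1 SD over 5 libraries. At 30 months mir-203 stands at 1.66, while mir-200c, mir-141 and mir-205 stand at −0.47, −1.24 and −0.98.

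Ratios within a library set mir-203 against these precursors without any scaling. For each count of mir-200c there were 4.91, 6.72, 4.74, 4.0 and 4.01 counts of mir-203 at 30 months, against 0.970, 1.32, 1.06, 0.897 and 1.27 at 2 months. The lowest ratio of 30 months was above the highest of the 3 younger ages, 2.75 at both 9 and 15 months. Since mir-203 was chosen for the counts that form the numerator, all these ratios are a description and no separate support. For each count of mir-205 there were 31.4, 26.2, 25.5, 31.4 and 23.1 counts of mir-203 at 30 months, against 3.25, 3.03, 3.94, 7.25 and 5.74 at 2 months. With mir-203 above and both epithelial precursors below their 2-month levels, the mean ratio to mir-200c was 4.88 ± 1.11 in 30-month and 1.1 ± 0.185 in 2-month libraries (n = 5 each, ± SD). The mean ratio to mir-205 was 27.5 ± 3.74 at 30 months and 4.64 ± 1.81 at 2 months. At 15 against 9 months neither ratio differed beyond its spread. The ratio to mir-200c was 1.82 ± 0.586 at 15 and 1.74 ± 0.620 at 9 months, and that to mir-205 was 5.97 ± 3.37 at 15 and 5.63 ± 2.51 at 9 months. The ratio to mir-141 was more spread, at 1.09 ± 1.2 in 30-month and 0.106 ± 0.0264 in 2-month libraries. It was 3.23 in replicate 2 of 30 months and 0.416 to 0.724 in the rest of that age. At 24 months it was likewise 2.27 in replicate 2, where mir-141 was at 10.3 CPM, and 0.31 to 0.398 in the rest. Its 24- and 15-month libraries overlapped, with 0.31 as the lowest at 24 months and 0.376 as the highest at 15 months.

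**Figure D5:**
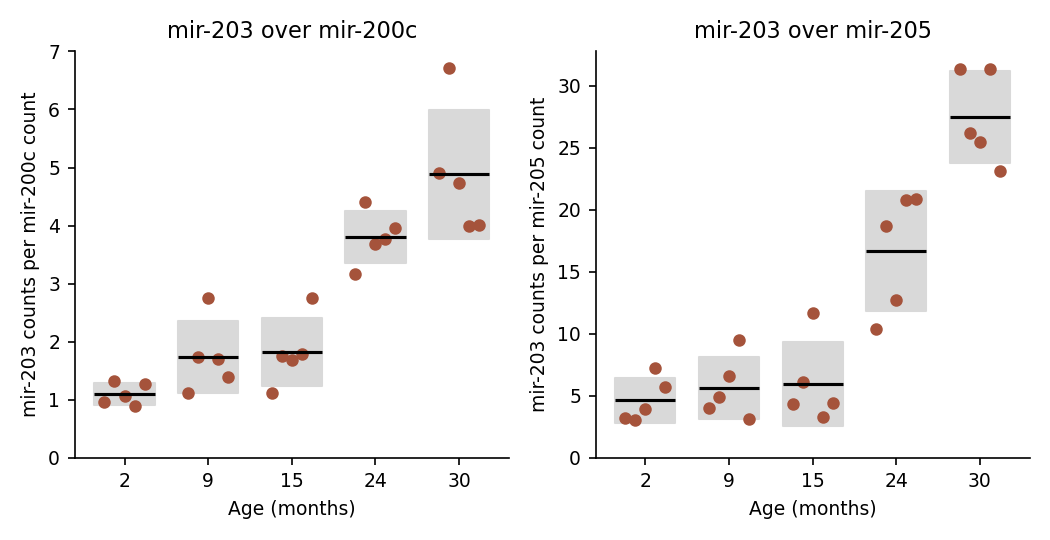
Counts of mir-203 per count of mir-200c (left) and per count of mir-205 (right) in each library (points) by age in months, with the mean (black bars) and 1 SD (grey). The 30-month ratios, 4.0 to 6.72 and 23.1 to 31.4, lie above all ratios of 2 months. Mir-203 was chosen for its counts, so the ratios are a description.

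Mir-211, a microRNA of pigment cells and thus also of skin, fell. It changed by −3.30 on the log2 scale at 30 against 2 months (SE 0.61, edgeR adjusted p = 0.000658), and the call held in all 20 alternatives that tested it. Its raw counts were 0, 4, 2, 1 and 0 at 30 months, mostly below the floor of 3 counts, against 24, 37, 14, 27 and 16 at 2 months. The size of the change is therefore loosely fixed, and it ran from −4.06 to −2.77 over the alternatives. Mir-204, the other pigment cell precursor listed, changed by −0.26 (SE 0.30, adjusted p = 0.624).

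Other cell types in blood were followed through lists of their microRNAs, and the myeloid list moved in the direction of mir-203. At 30 against 2 months 5 of the 6 myeloid members rose and 0 fell, where 9.17% of tested precursors rose. Mir-23a, mir-27a and mir-24-2 belong to 1 cluster, so their calls are not separate. In the trend with age 5 rose, where 10.7% of tested precursors did. Without the 2-month group 0 rose in the trend, where 6 of 329 tested precursors did. All 5 were called in 11 of 22 alternatives, and the number was 2 without a filter and with thinned libraries, 3 without replicate 2 of 30 months and 4 or 5 otherwise. Mir-223 and mir-23a passed in all 22, mir-24-2 in 20, mir-146b in 17 and mir-27a in 13. The neutrophil and monocyte microRNA mir-223 rose by 1.44 log2 units (SE 0.17, adjusted p = 1.65e-06) and mir-23a by 0.90 (SE 0.17, adjusted p = 0.000658), while mir-142a, present in all white blood cells, changed by 0.16 (SE 0.19, adjusted p = 0.656). Because mir-142a holds most of it, the summed level of the list ran from 8060 to 9800 CPM at 30 months and from 6980 to 8470 CPM at 2 months. In the mir-183 cluster, known from sensory epithelia, both tested members rose, mir-182 by 1.42 (SE 0.32, adjusted p = 0.00652) and mir-183 by 0.80 (SE 0.24, adjusted p = 0.0285), and mir-96 did not pass the filter. The summed level of this cluster was 217 CPM in replicate 3 of 30 months and 63.3 to 118.1 CPM in the other 4. At 24 months it was 168.8 CPM in replicate 4 and 51.0 to 79.1 CPM in the other 4. Both high libraries were shallow, at 5.747 M and 4.884 M counts, and a link with depth was not tested. Without replicate 3 of 30 months mir-183 had a log2 change of 0.52 (adjusted p = 0.0750) and was not called. Mir-183 passed in 17 of 21 alternatives, against 22 of 22 for mir-182. The part of either list in the level of mir-203 was not tested.

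The remaining lists had no member that rose at 30 against 2 months, where 9.17% of all tested precursors rose and 5.03% fell, so a count of 0 in lists of this size is near the background. In the lymphocyte list 0 of 7 passed in either direction, and its summed level ran from 1230 to 2050 CPM at 30 months and from 1600 to 2200 CPM at 2 months. In the red cell list 1 of 6 was lower, mir-144, by a log2 change of −1.41 (SE 0.35, adjusted p = 0.0101), a call held in 19 of 22 alternatives. In the list of platelets, endothelium and smooth muscle 2 of 6 were lower, mir-126a at −1.35 (SE 0.34, adjusted p = 0.0101) and mir-199a-1 at −1.66 (SE 0.39, adjusted p = 0.00755). Of the liver and gut list 0 of 5 tested members passed, and of the muscle list 0 of 3. Mir-206, the skeletal muscle microRNA, was at 0 in all 25 libraries, but other muscle members were present and uneven. Mir-133a-1 averaged 13.2 ± 7.55 CPM at 30 months and 43.6 ± 42.0 CPM at 2 months, with a log2 change of −1.73 (SE 0.73, adjusted p = 0.132). The summed level of the muscle list ran from 10.2 to 44.9 CPM at 30 months and from 26.0 to 238 CPM at 2 months.

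Among the 157 other tested precursors that reached a mean of 10 CPM in any age group, the profile closest to that of mir-203 was that of mir-223. Likeness was the mean absolute difference in log2 CPM over the 25 libraries, after each precursor was centred on its own mean. It was 0.300 log2 units for mir-223, 0.306 for mir-23a of the myeloid mir-23a cluster, 0.329 for mir-99b, 0.332 for mir-335, of the imprinted Mest gene, and 0.354 for mir-10a of the Hoxb gene cluster, against a median of 0.630 over all 157. These precursors share the libraries and their scaling with mir-203 and were picked by this likeness, so their values are a description.

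The 5 profiles differed from mir-203 at particular ages. Mir-223 was at 114 ± 26.6 CPM at 9 months and 81.8 ± 10.4 CPM at 15 months, where mir-203 was level, and at 158 ± 44.1 CPM at 30 months. Mir-10a reached 2000 ± 332 CPM at 9 months, against 1160 ± 179 CPM at 2 months. Its 24-month mean of 2230 ± 237 CPM lay within 1 SD of its 15-month mean of 2350 ± 940 CPM, the step at which mir-203 differed most. That 15-month mean and SD rest on 1 library at 4000 CPM, with the next at 2090 CPM. Mir-335 was within its spread from 2 to 15 months, with 5.87 ± 1.25, 6.62 ± 1.86 and 6.77 ± 1.45 CPM at 2, 9 and 15 months, and then 8.81 ± 1.56 CPM at 24 months and 12.3 ± 3.21 CPM at 30 months. Mir-23a and mir-99b had no higher mean at 30 than at 24 months beyond their spread, at 30 and 24 months 75.3 ± 18.5 and 84.0 ± 13.1 CPM for mir-23a and 64.6 ± 22.9 and 63.8 ± 19.6 CPM for mir-99b (n = 5 each, ± SD). The 30-month mean of mir-99b holds 1 library at 24.5 CPM, with the next at 68.4 CPM.

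Of the other precursors on chromosome 12, none with enough counts to be tested lay close to mir-203. The nearest tested precursor before it was mir-410 of the imprinted Dlk1-Dio3 cluster, 2387 kb away, with 2.33 ± 1.38 CPM at 30 months and 3.03 ± 0.687 CPM at 2 months and a log2 change of −0.38 (SE 0.34, adjusted p = 0.531). The nearest after it was mir-153, 5120 kb away, with a log2 change of 0.23 (SE 0.35, adjusted p = 0.733). Of the other 17 tested precursors placed on the chromosome, 0 were higher and 0 lower at 30 against 2 months in the edgeR test, with a median log2 change of −0.10, where 14.2% of all tested precursors passed. In the trend with age 1 was higher, mir-1843a (named after its value was seen), with a slope per 10 months of 0.13 on the log2 scale (SE 0.04, adjusted p = 0.0220), where mir-203 had 0.59 (SE 0.05). Over all tested precursors 19.8% passed in the trend. With 17 precursors these counts are too small to set the chromosome apart from the rest.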

How the data were processed

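Blood RNA was made into libraries with a TruSeq small RNA kit, according to the labels' protocols. Per the deposited table's own values, the authors gave whole, unnormalised counts for each precursor. The submitters' processing notes list bcl2fastq 1.8.4, Trimmomatic 0.36 and SAMtools 1.3.1-9 and give no role for them. No aligner, counter, microRNA release, build or strand setting is given in the sources used here. Positions and sequences are those of RefSeq on GRCm38.p6, not of the authors' build.

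All 25 libraries entered 1 fit per design (age as a factor, or a linear trend) with edgeR 4.0.16 in R 4.3.3: trimmed mean of M-values factors (0.778 to 1.29), the default filter by age (28.3% of 1193 precursors kept), robust quasi-likelihood F tests, Benjamini-Hochberg adjustment over all precursors kept and a threshold of 0.05. Tests are two-sided, and every adjusted p in the text is from this edgeR test. A change is the older age over the younger. Replicate numbers follow the order of deposit and pair no animals. The labels do not say more of the animals than their numbers, so p-values measure the spread between these libraries. No 2 libraries of an age matched within sampling noise (50 pairs, chi-square per degree of freedom of 126.8 or more). A floor of 3 counts is 0.124 to 0.614 CPM, depending on the library. Folding used RNAfold 2.7.2. The fits were tested on simulated counts, drawn with the same dispersion for every precursor and no lane effect. Changes were planted only above a set mean count, so calls at lower counts were not covered.

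Mir-203, the lists and the tests were chosen with earlier results of these data known. The text names mir-203, precursors that overlap it or share a seed with it, list members, the nearest tested precursor on each side and the 5 of closest profile. Alternatives were other scalings, filters, DESeq2 1.42.0, lane as a term, thinning, fewer ages and leaving out each library.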

Additional observations from a re-analysis of the deposited data

Results flagged for a closer look

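In 55 groups of 5 libraries, the highest or lowest library was compared with the range of its age, and it stood apart where its gap to the nearest other was more than 0.710 of that range. Chance alone gives about 1 in 20 such groups. Mir-203 at 24 months had its lowest library, replicate 4, at 14.6 CPM, with the next at 22.1 CPM. By plain library totals, mir-203 at 9 months had its lowest library, replicate 5, at 7.64 CPM, with the next at 12 CPM, while with trimmed mean factors that library had 9.83 CPM and did not stand apart. Among the precursors of similar profile, mir-223 had 1 library of 9 months at 161 CPM, with the next at 107 CPM. Mir-10a had 1 at 2590 CPM at 9 months, with the next at 1910 CPM, and 1 at 4000 CPM at 15 months, with the next at 2090 CPM. Mir-99b had 1 at 82.9 CPM at 15 months, with the next at 42.0 CPM, and 1 low library of 30 months at 24.5 CPM, with the next at 68.4 CPM.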

How the results depend on the processing

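No paired analysis was possible because the labels give no replicate numbers shared between ages. The log2 changes of mir-203 were above 0 in each of the 23 alternatives for every age and in each of the 38 for the slope. They moved by more than the pooled SD of 0.228 log2 units only with library totals, to 1.77 at 24 months and 1.92 at 30 months. The slope, whose move was taken over the whole span of ages, did so with library totals too, at 0.70 per 10 months. Leaving out 1 library at a time gave 0.48 to 0.65 at 9 months, 0.57 to 0.74 at 15 months, 1.42 to 1.52 at 24 months, 1.65 to 1.76 at 30 months and 0.60 to 0.63 per 10 months. Added after seeing the data, fits without replicates 4 and 5 of 30 months and without lane 3 gave 1.73 each at 30 months, and division by the geometric mean of the 10 most abundant precursors gave 1.87.

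Counts of calls were less stable, and the cause was not tested. At 30 against 2 months 48 precursors passed, but 15 without a filter, 19 with thinned libraries, 30 in a fit of both ages alone, 26 without replicates 4 and 5 of 30 months, and 32 to 49 without 1 library. For the trend 67 passed, but 39 without a filter, 38 with a filter of 10 CPM, 32 with thinned libraries, 9 without the 2-month group, and 43 (without 2 months replicate 3) to 71 without 1 library. The split at 30 months was 31 higher and 17 lower, but by library totals 51 and 6, and 39 and 13 with totals less the 10 most abundant. For the trend it was 36 and 31, but by library totals 80 and 9, by upper quartile factors 38 and 18, and 54 and 16 with totals less the 10 most abundant.

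Of the epithelial list 1 member was called at 30 against 2 months and 2 in the trend. At 30 against 2 months the number was 0 in 17 of 22 alternatives: with library totals, upper quartile factors, totals less the 10 most abundant, no filter, a filter of 10 CPM, lane in the fit, thinned libraries, without replicates 4 and 5 of 30 months, without lane 3 and without most single libraries (range 0 to 1). In the trend it was 0 in 21 of 37, among them the same settings except lane in the fit, 1 without the 2-month group, and 0 to 2 without 1 library. With the filter of 10 CPM only mir-141 of the list was tested in either comparison. The 0 there says nothing of mir-205 or mir-200c, which could not be called. With thinned libraries mir-200c had a log2 change of 0.0275 at 30 against 2 months. The slope of mir-410 was 0.0316 with library totals and 0.0144 without the 2-month group. The shallowest libraries, at 24 and 30 months, limit the precision of precursors below about 1 CPM.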
